A study of Mus musculus with 17 samples.

Results

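The genes described here encode the proteins of the cytosolic ribosome, measured in extensor digitorum longus (EDL) muscle of aged mice. They were the table rows whose symbol starts with Rpl or Rps followed by a number, with an optional a, x or l, together with Rplp0, Rplp1, Rplp2 and Rpsa. Pseudogene symbols and the Rps6k kinases were left out. The rule found 83 genes of 36172, of which 48 belong to the large subunit, 32 to the small subunit including Rpsa, and 3 to the P stalk. After a filter on low counts 80 of the 83 were tested, among 13965 genes in all. Rps3a was listed at 0 in every animal, Rpl10l had 0.25 estimated counts over all libraries and Rpl39l 19.3, so these 3 were not tested. The sources used here do not give how reads were divided between Rps3a and its copies. Its 0 is therefore not read as a lack of expression.

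EDL, which lifts the toes and holds mostly fast fibres, was sequenced in 17 mice of 22 or 23 months. An empty vector had been given to 10 mice, 5 females and 5 males, of which 3 were 22 months old and 7 were 23 months old. A Hand2 vector had been given to 7 mice, 4 females and 3 males, of which 4 were 22 months old and 3 were 23 months old. Hand2 encodes a transcription factor active in sympathetic neurons, the nerve cells whose upkeep in aged muscle the series addresses. The sources used here do not give the route and time of injection, the promoter or the mouse strain. Sex and age were unevenly crossed, with 5 females and 2 males of 22 months and 4 females and 6 males of 23 months.

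The libraries held 19181208 to 30942818 estimated counts (median 26091234). Hand2 itself lay between 0.0711 and 0.920 CPM (CPM being counts scaled to a common library size by TMM) in the empty-vector animals and between 1.02 and 26.3 CPM in the Hand2 animals, which did not overlap (log2 fold change 3.63, edgeR adjusted p 0.124). Fast-fibre markers such as Myh4 and Actn3 summed to 66784 to 85717 CPM, against 135 to 1456 CPM for slow-fibre markers such as Myh7 and Myl2.

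The ribosome translates messenger RNA in every cell. Its small subunit reads the message and its large subunit joins the amino acids, while the P stalk recruits the factors that drive each step. Most ribosomal proteins are needed in equal numbers, and their messenger RNAs typically begin with a run of pyrimidines (C and T in DNA), the 5′ terminal oligopyrimidine tract, through which the kinase mTOR governs their translation. Skeletal muscle and heart are unusual in that they express Rpl3l, a paralogue of Rpl3 whose product can take its place in the large subunit, next to the site where peptide bonds form.

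The start sites are shown because most of these genes varied together across animals. The paralogues Rpl7l1, Rpl22l1 and Rpl3l followed the others less closely, as did Rpl3, Rpl10 and Rpl22. Whether the start site bears on this was not tested. The start sites were picked to show genes with and without a pyrimidine run, so the share among them is not that of all members. Each line gives the RefSeq sequence (GRCm38.p6, the mm10 build), 5′ to 3′ on the gene's strand, from 30 bases before the annotated start to 20 bases from it on. Capitals mark runs of at least 8 pyrimidines near the start. In Rpl3l they mark instead a CAGCTG, the form of E-box recognised by muscle transcription factors of the basic helix-loop-helix class.
Rpl18 (chr7:45718041-45718090, plus): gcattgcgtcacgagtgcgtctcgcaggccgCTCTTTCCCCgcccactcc
Rpl15 (chr14:18270967-18271016, minus): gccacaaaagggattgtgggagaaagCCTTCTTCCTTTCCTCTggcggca
Rps6 (chr4:86857348-86857397, minus): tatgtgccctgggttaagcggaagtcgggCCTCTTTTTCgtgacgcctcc
Rps10 (chr17:27635225-27635274, minus): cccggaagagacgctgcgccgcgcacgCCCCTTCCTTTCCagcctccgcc
Rpl26 (chr11:68901536-68901585, plus): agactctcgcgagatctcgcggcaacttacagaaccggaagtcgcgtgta
Rpsa (chr9:120127736-120127785, plus): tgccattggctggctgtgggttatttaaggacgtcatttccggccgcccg
Rplp2 (chr7:141447621-141447670, plus): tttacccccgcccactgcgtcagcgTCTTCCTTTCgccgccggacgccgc
Rpl22l1 (chr3:28805478-28805527, plus): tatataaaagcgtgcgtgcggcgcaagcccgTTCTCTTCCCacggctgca
Rpl7l1 (chr17:46782637-46782686, minus): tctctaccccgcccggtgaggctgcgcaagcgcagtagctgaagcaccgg
Rpl3l (chr17:24727796-24727845, plus): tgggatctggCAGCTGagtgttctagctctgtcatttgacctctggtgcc

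RefSeq promoters were matched for 63 of the 83 genes. For members the promoter nearest the gene start was used, and for all genes the first one listed. All genes were counted whether expressed in this muscle or not, so the shares below do not compare like with like. A run of at least 8 pyrimidines between 10 bases before and 30 bases after the start was present in 25 of the 63 (39.7%), against 14.3% of 27025 genes with a promoter in the table. The letters CCGGAAG, a core bound by ETS factors, were found on either strand in 26 of 63 (41.3%) within 250 bases before to 50 after the start, against 9.12% of all genes. The GC box GGGCGG was found in 38 (60.3%, against 35.9% of all), and AAGATGGC, a core bound by YY1, in 5 (7.94%, against 2.88%). The TATA box TATAAA was found in 6 (9.52%, against 14.2%) and CAGCTG in 4 (6.35%, against 16.1%). None of these motifs contains another. Rpl3l, Rpl7l1 and Rpsa had no run of at least 8 pyrimidines near their annotated start, where their longest runs were 5, 2 and 7. Shorter runs were not counted. Rpl22l1 had a run of at least 8, and that of Rpl26 lay past the bases shown.

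Together the 83 genes accounted for 1.96% ± 0.0980 (SD, n = 17) of all counts, from 1.78% to 2.11% per animal. Levels are compared between genes as CPM per kb of coding sequence. On that scale the median of the 80 tested genes was 464, and 75 of the 80 lay within 2-fold of it. The highest value was that of Rpl41, the shortest coding sequence, at 2888 ± 173 CPM per kb (SD, n = 17), followed by Rplp1 at 1017 ± 58.7, a stalk protein. Per length of the longest annotated transcript instead, Rpl41 ranked 18 and Rplp1 ranked 1. At the low end were Rpl22l1 at 117 ± 11.3, Rpl3 at 70.5 ± 12.3 and Rpl7l1 at 65.1 ± 5.04, and the last of these ranked 80 of 80 on either length.

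**Figure D1:**
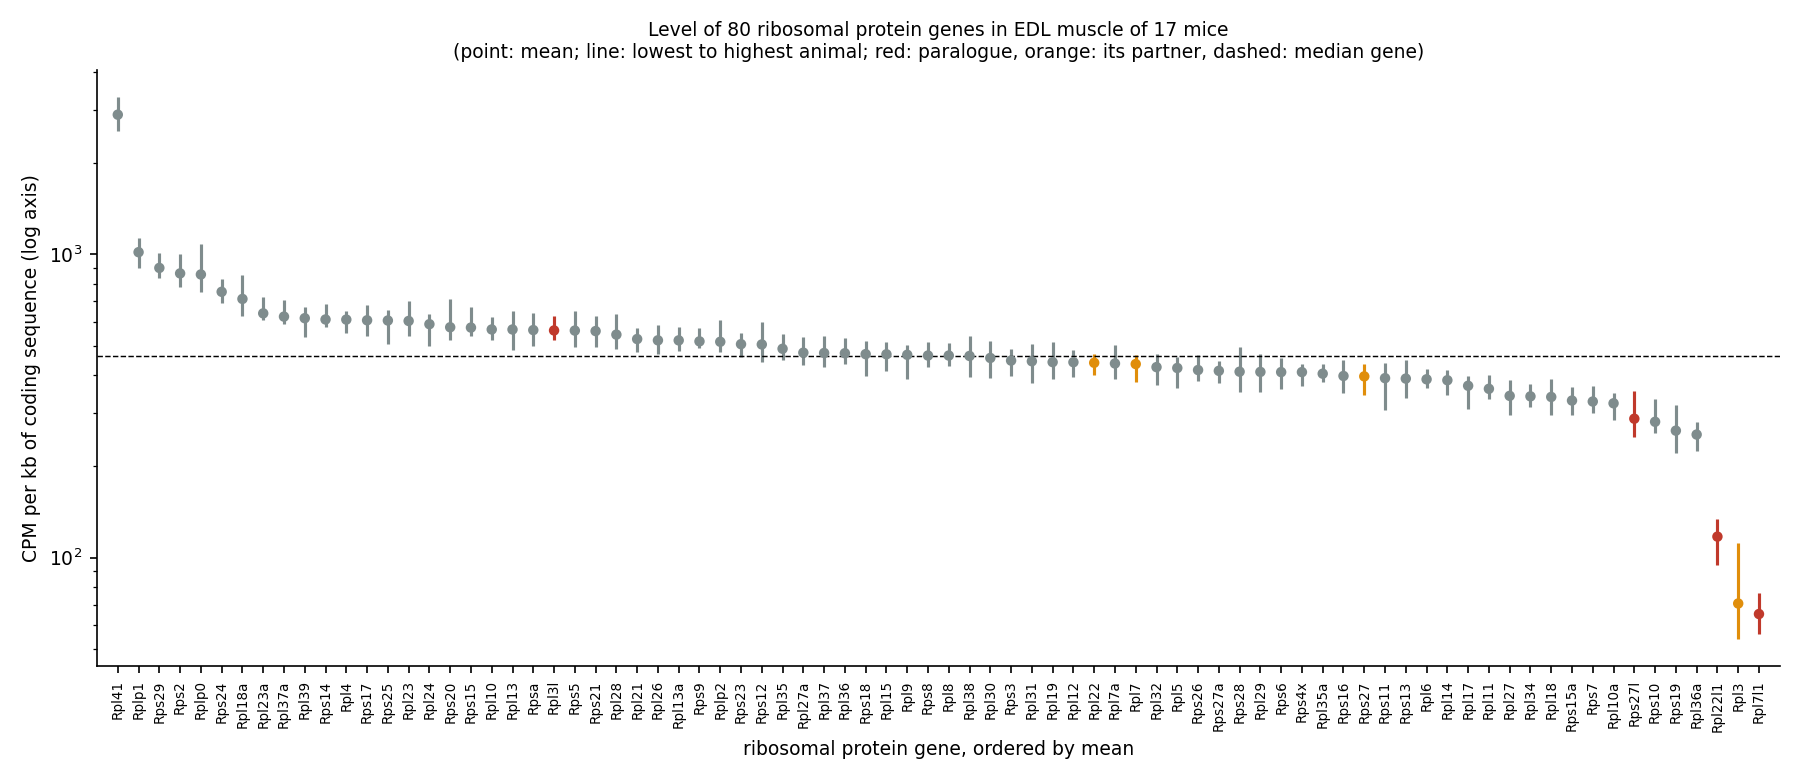
Level of each of the 80 tested ribosomal protein genes as CPM per kb of coding sequence (log axis), with points for the mean of 17 animals and lines from the lowest to the highest animal. Rpl41 stands above the others at 2888, and Rpl22l1, Rpl3 and Rpl7l1 stand below them at 117, 70.5 and 65.1.

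Rpl3 (Entrez gene 27367, chr15:80077781-80083406, minus strand, mm10) was a minor form in this muscle. Rpl3l (Entrez gene 66211, chr17:24727829-24736149, plus strand) lay 5901 bases from Rps2, a small-subunit gene that is also a member. In the empty-vector animals Rpl3 measured 71.1 to 135 CPM with a median of 83.3, and Rpl3l 636 to 763 CPM with a median of 697. In the Hand2 animals Rpl3 measured 65.4 to 90.0 CPM with a median of 85.3, and Rpl3l 645 to 695 CPM with a median of 685. Per coding length Rpl3l was 8.13 ± 1.24 times as high as Rpl3 (SD, n = 17), from 5.23 to 10.4, and it was the higher in every animal. The coding sequences are of similar length, 1221 and 1209 bases, and the count ratio was 8.22 ± 1.25.

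The other paralogues stood below their partners by varying amounts. Per coding length, Rps27l, a paralogue of the small-subunit gene Rps27, stood at 0.725 ± 0.0396 of its partner (SD, n = 17). Rpl22l1 stood at 0.268 ± 0.0271 of Rpl22 and Rpl7l1 at 0.151 ± 0.0168 of Rpl7. With the longest annotated transcripts the Rpl22l1 ratio became 0.947, since Rpl22 has a long annotated transcript, and that of Rpl7l1 0.0612. The Rps27l ratio became 0.501. Rpl39l, a paralogue of Rpl39, reached at most 0.273 CPM in any animal, against 94.2 ± 6.37 CPM (SD, n = 17) for Rpl39.

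The members varied together from animal to animal. Over 3160 pairs of members, the median Pearson correlation of log2 CPM across the 17 animals was 0.758, against -0.0010 over all pairs of tested genes, with library and scaling factor shared by all genes of an animal. Within the vector-by-sex groups the median was 0.626. The lowest typical correlations with other members were those of Rpl7l1 (0.0087), Rpl22l1 (0.077), Rpl3 (0.31), Rpl10 (0.43), Rpl22 (0.50) and Rpl3l (0.51). The largest spread between animals was that of Rpl3, with an SD of 0.22 on the log2 scale, and the smallest those of Rpl35a, Rps9 and Rpl6, at 0.055, 0.058 and 0.058.

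Each animal's deviation was summarised as the median over members of log2 CPM minus the gene's mean. Among the females it ran from -0.013 to 0.15, highest in empty-vector replicate 2, which had 78 of 80 members above their mean. Among the males it ran from -0.15 in Hand2 replicate 7 to 0.095 in empty-vector replicate 10. That male, 1 of 2 males of 22 months, had 77 of 80 members above their mean, and the other 7 males lay between -0.15 and -0.013. At 23 months the members' share of counts was 1.96% to 2.07% in the 4 females and 1.78% to 1.94% in the 6 males, which did not overlap. At 22 months it was 1.98% to 2.11% in the 5 females and 1.87% and 2.09% in the 2 males, which did.

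**Figure D2:**
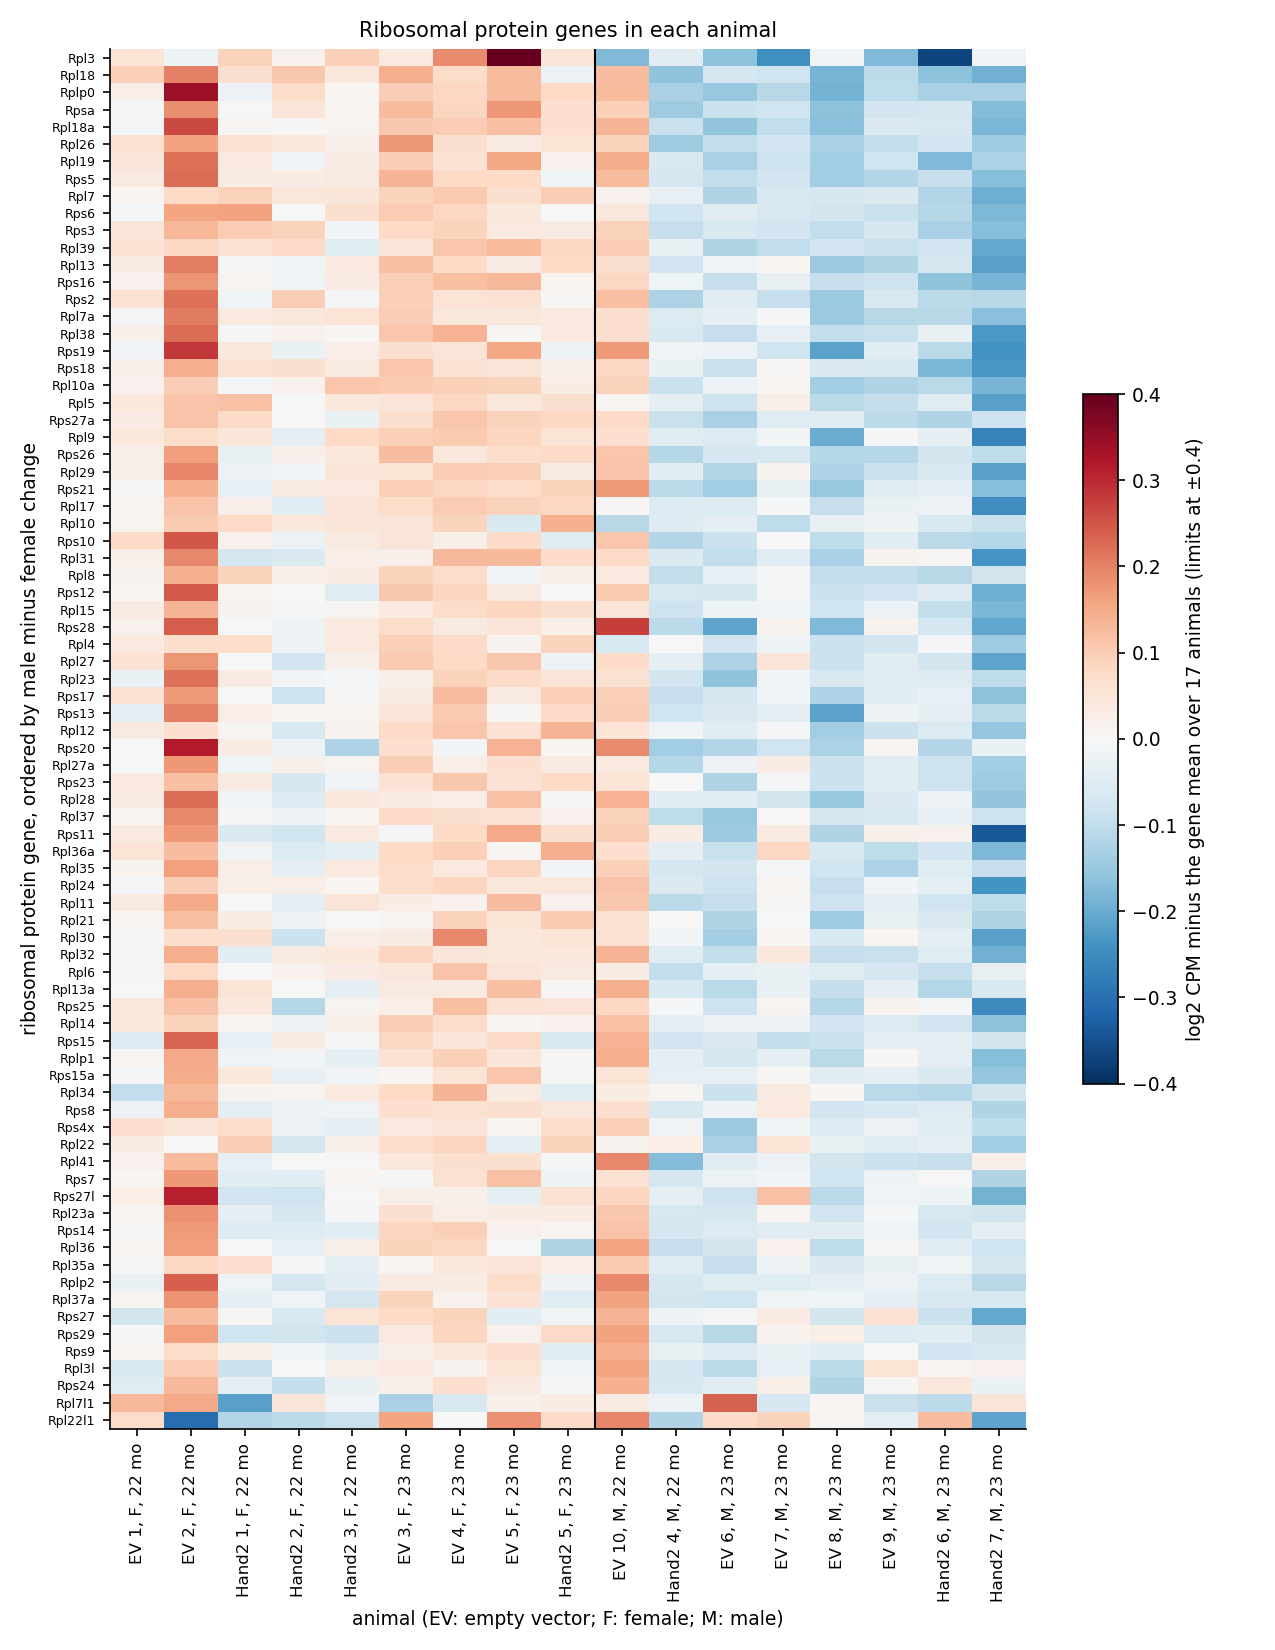
Log2 CPM of 80 ribosomal protein genes (rows) in 17 animals (columns) as the difference from each gene's mean, with colours limited at ±0.4 and females left of the black line. In 11 of the animals at least 74 or at most 12 of the 80 members lie above their mean, the other 6 are mixed, and empty-vector replicate 10 stands apart from the other males.

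The first comparison, of the Hand2 vector with the empty vector, is the one the design names. It was fitted by edgeR's quasi-likelihood test over all 13965 genes with sex in the model. None of the 80 members passed an adjusted p under 0.05, and neither did any other gene (0% of those tested). DESeq2 called 1 gene and no member, and limma-voom called none. At an unadjusted p under 0.05 there were 14 members, all lower with Hand2 (17.5% of members), against 5.05% of all genes in either direction and 2.56% lower. That count of members was 2 with upper-quartile scaling, 2 at 23 months alone, 5 without the sex term, 9 without empty-vector replicates 3, 4 and 5, and 30 with an age term. It was 8 without empty-vector replicate 2 or Hand2 replicate 7, 22 without empty-vector replicate 1 and 26 without empty-vector replicate 8. The log2 fold change was below 0 for 78 of 80 members, against 51.7% of all genes. Its median over members was -0.069 (a difference of -4.67%), with -0.060 for the large subunit, -0.074 for the small subunit and -0.080 for the P stalk. The median was -0.0041 over all genes and -0.017 over genes of at least 100 CPM. In no member were the 2 vector groups apart, against 0.0143% of all genes with the Hand2 group higher and 0.00716% with it lower. Members share their library and varied together, so these counts do not measure independent genes.

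The smallest unadjusted p was that of Rpl27, a large-subunit protein, and its values show the size of the shift. Rpl27 measured 128 to 157 CPM with a median of 146 in the empty-vector group and 120 to 141 CPM with a median of 135 in the Hand2 group. The ranges overlapped, and the log2 fold change of -0.10 ± 0.037 (SE) had an edgeR adjusted p of 0.921. Rps10, a small-subunit protein, measured 129 to 165 CPM in the empty-vector group and 128 to 142 CPM in the Hand2 group, with a log2 fold change of -0.097 ± 0.038. Rpl37a, Rps16 and Rpl15 followed with -0.094, -0.090 and -0.076. The members above 0 were Rpl10, an X-linked gene whose product completes the large subunit, at 0.016, and Rpl4 at 0.00038, which lay below 0 under DESeq2's size factors (-0.0013). Among the stalk genes Rplp2 had -0.10, Rplp1 -0.079 and Rplp0 -0.080, and Rpsa had -0.076. The paralogues Rpl22l1, Rps27l, Rpl7l1 and Rpl3l had -0.11, -0.091, -0.057 and -0.031, and none of them passed.

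The animals of each age were also fitted alone. The members' median log2 fold change was -0.11 in the 7 animals of 22 months and -0.041 in the 10 of 23 months, with no member called at either age, and the difference between the ages was not tested. Within females the median was -0.067 and within males -0.067, with 0 members called in each (0% of all genes in each) by edgeR. The male median was -0.029 without empty-vector replicate 10, with 67 of 80 below 0, and -0.036 without Hand2 replicate 7, with 68 below 0. The female median ran from -0.082 to -0.048 without single animals, the latter without empty-vector replicate 2. At an unadjusted p under 0.05 there were 3 members in females, all lower with Hand2 (5.9% of all genes in either direction, 3.15% lower), and 3 in males, all lower (2.84% of all genes, 1.39% lower). The fold change was below 0 for 77 of 80 members in females (51.6% of all genes) and 78 in males (51.1%). The 3 members at an unadjusted p under 0.05 were Rpl27, Rpl37a and Rps14 in females, and Rpl15, Rps18 and Rps27 in males. The difference of the effect between sexes had a median of 0.0068 over members, with no member called (0% of all genes) and none at an unadjusted p under 0.05 (3.39% of all, 1.39% lower). It was below 0 for 34 of 80 members (50.3% of all genes). Without single animals its median took either sign, from -0.012 without empty-vector replicate 2 (54 below 0) to 0.037 without empty-vector replicate 10 (16 below 0), and 20 were below 0 without Hand2 replicate 7. DESeq2 called 7 genes in females, 1 in males and 0 for the difference between sexes, with no member among them.

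The second comparison is that of males with females, from the same model. Of the 80 members 27 passed an adjusted p under 0.05 by edgeR's quasi-likelihood test, all lower in males (33.75%), against 5.63% of all genes, of which 2.91% were higher and 2.72% lower. The called members were 17 of 46 large-subunit genes, 9 of 31 small-subunit genes and 1 of 3 stalk genes. The log2 fold change was below 0 for 78 of 80 members (49.9% of all genes), with a median of -0.11 (a difference of -7.06%), against 0.00058 over all genes. In bulk muscle, fewer cells of a type and less RNA per cell cannot be told apart. In no member were the ranges of the sexes apart, against 0.351% of all genes with males below females and 0.494% with males above. At an unadjusted p under 0.05 there were 56 members, all lower, against 21.6% of all genes in either direction and 11% lower.

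**Figure D3:**
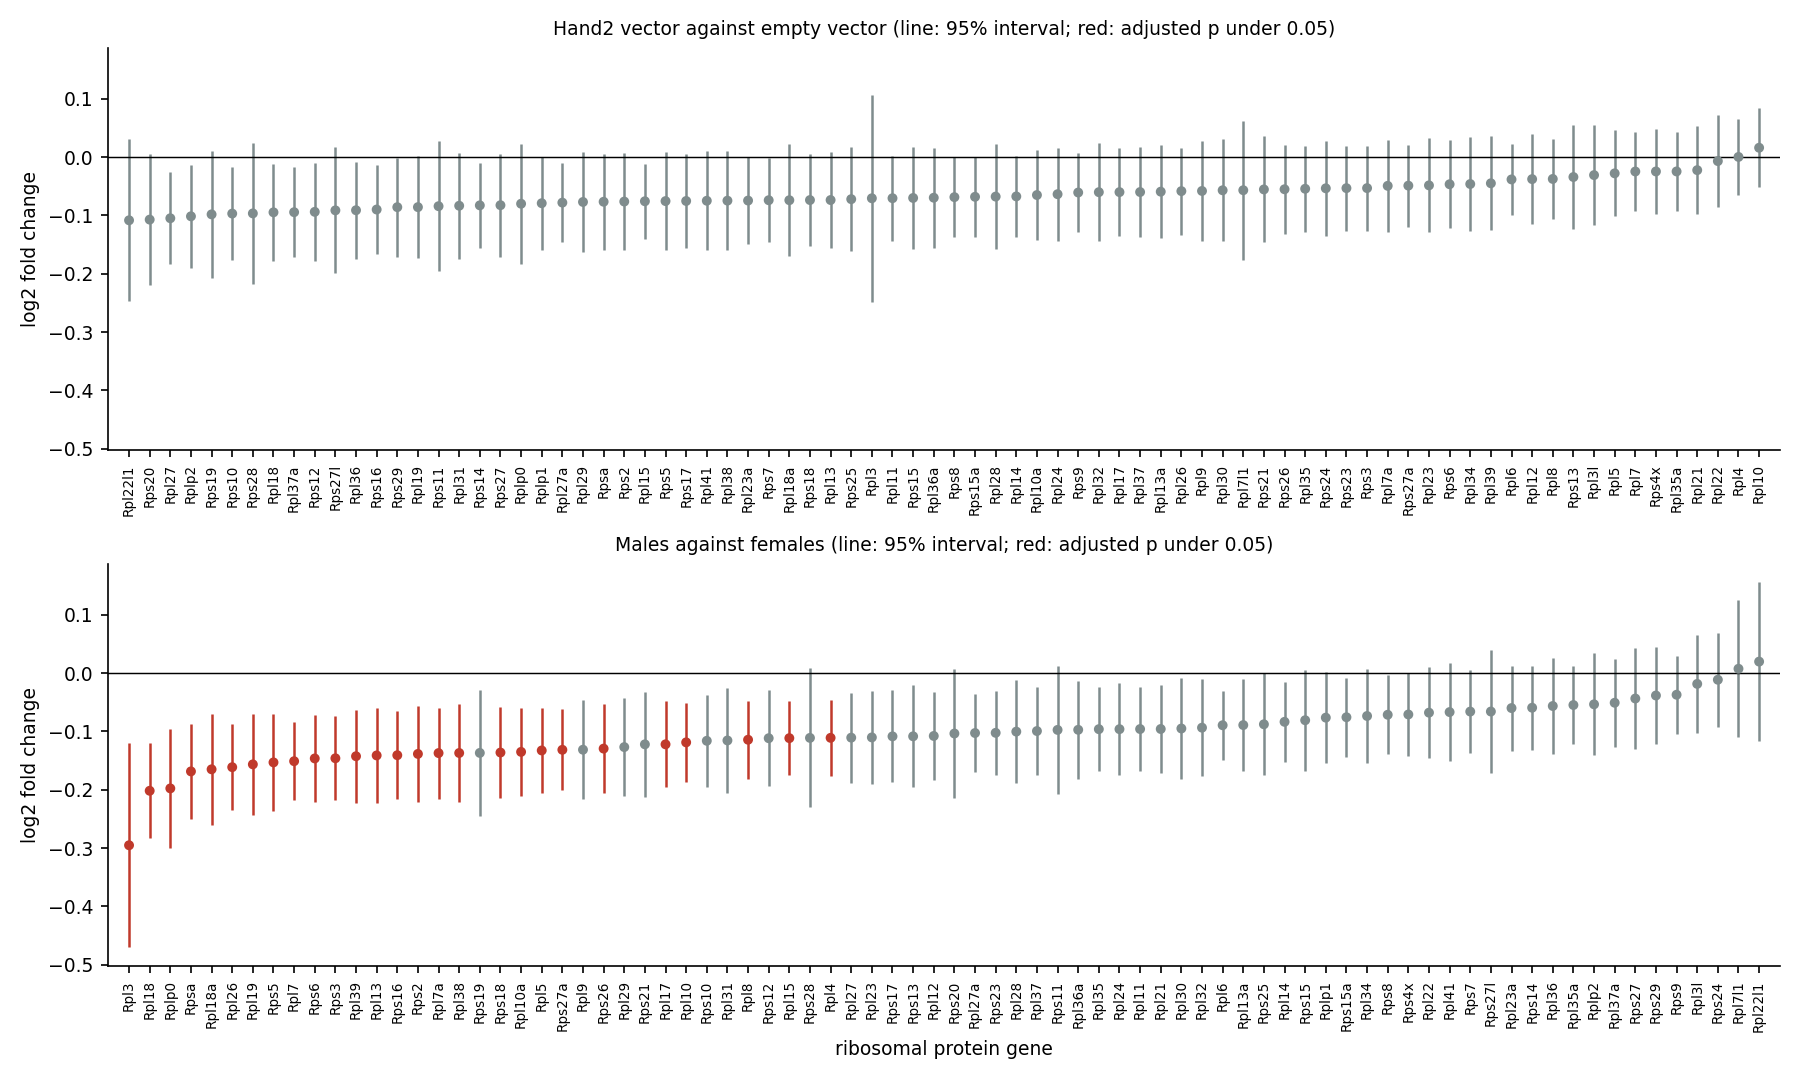
Log2 fold change of each of the 80 members with its 95% interval, for Hand2 vector against empty vector (top) and males against females (bottom), with red for an edgeR adjusted p under 0.05. In both panels 78 of 80 points lie below 0, and 27 are red in the lower panel and none in the upper.

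Rpl18, a large-subunit protein, had the smallest p. It measured 187 to 219 CPM with a median of 203 in females and 167 to 207 CPM with a median of 174 in males. Empty-vector replicate 10 gave the 207, and the other males lay at or below 181. The log2 fold change was -0.20 ± 0.039 (SE) with an edgeR adjusted p of 0.00486. Rpl7 measured 353 to 378 CPM in females and 307 to 356 CPM in males, a log2 fold change of -0.15 ± 0.032 with an edgeR adjusted p of 0.00917. Rpl26, a large-subunit protein at the peptide exit, measured 229 to 255 CPM in females and 205 to 240 CPM in males, a log2 fold change of -0.16 ± 0.035 with an edgeR adjusted p of 0.0107. In each of these genes the ranges overlapped through that same male.

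Among small-subunit genes, Rpsa had a log2 fold change of -0.17 ± 0.039 with an edgeR adjusted p of 0.0151. Rpsa encodes a protein also known as the laminin receptor, and it measured 495 to 565 CPM in females and 440 to 530 CPM in males. Rps3, which sits where the message enters, measured 322 to 356 CPM in females and 289 to 346 CPM in males and had -0.15 ± 0.034 with an edgeR adjusted p of 0.0177. Rps6, the substrate of the S6 kinases, fell by 0.15 on the log2 scale with an edgeR adjusted p of 0.0218. Of the stalk genes, Rplp0 was lower in males with 713 to 887 CPM against 800 to 1030 CPM in females, a log2 fold change of -0.20 ± 0.048 and an edgeR adjusted p of 0.0230. Its partners Rplp1 and Rplp2 had -0.076 and -0.054 and did not pass.

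The paralogues Rpl22l1 and Rpl7l1 were the 2 members with a fold change above 0, at 0.020 ± 0.065 and 0.0075 ± 0.056, and each lay below 0 in some other settings (Rpl22l1 -0.088 at 23 months, Rpl7l1 -0.032 at 22 months). Rpl22l1 measured 34.6 to 48.5 CPM in females and 36.9 to 48.9 CPM in males, and Rpl7l1 41.2 to 53.3 CPM and 44.6 to 56.4 CPM. Rps27l had -0.066 ± 0.051. None of these 3 passed the test. All 4 X-linked members (Rpl10, Rpl36a, Rpl39 and Rps4x) were below 0, with a median of -0.11, and the 76 autosomal members had the same median.

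The count of calls moved with the setting more than the direction did. In the 30 other settings 62 to 79 of the 80 members were below 0 and no member was called higher in males. With an age term 7 members were called (8.75%, against 3.80% of all genes) and the median was -0.094. Among the 22-month animals (5 females, 2 males) 0 were called (0.172% of all genes), with 1 member at an unadjusted p under 0.05, 62 below 0 and a median of -0.032. Among the 23-month animals 8 were called (10%, against 2.96% of all genes), with 79 below 0 and a median of -0.13. Leaving out the 3 empty-vector females of 23 months (replicates 3, 4 and 5) left 1 call (1.25% of members, below the 2.09% of all genes). Under upper-quartile scaling, which shifted the median of all genes by 0.026, 4 of 80 were called (5%, against 5.61% of all genes), so under that scaling the members' share was near the background. DESeq2 called 35 (43.75%, against 9.12% of all genes) and limma-voom 29 (36.25%, against 7.24%). Without empty-vector replicate 10, the male that stood apart, 42 were called (52.5%, against 6.49% of all genes). Single empty-vector animals left out otherwise gave 8 calls without replicate 7 or 9, 9 without 8, 11 without 3, 12 without 6, 13 without 4, 14 without 2, 18 without 5 and 29 without 1. Single Hand2 animals left out gave 9 calls without replicate 7, 11 without 3 or 6, 12 without 1, 15 without 2, 16 without 5 and 19 without 4. Over the fits without 1 animal, the share of all genes called also moved. It ran from 3.34% without empty-vector replicate 7 (10% of members) to 6.84% without empty-vector replicate 1 (36.25% of members). Of 7 called genes followed through the settings, Rpl18 was called in 29 of the 30, with -0.23 to -0.13 on the log2 scale. Rpl7 and Rpsa were called in 28, Rpl26 in 27, Rps3 in 26, Rplp0 in 24 and Rpl3 in 12. Apart from Rplp0 and Rpl3, these were the members of smallest p in this same comparison. Their counts therefore do not stand for the other called members, which were not followed gene by gene.

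Slow-fibre markers moved with sex in the same libraries. All 7 were lower in males (edgeR), against 2.72% of all genes. Their summed level was 282 to 1456 CPM in females and 135 to 326 CPM in males, and none was at 0. Of 6 adipocyte markers 4 were lower in males, among them Adipoq and Plin1, while the summed level overlapped at 175 to 328 CPM in females and 181 to 323 CPM in males, most of it from Fabp4, which did not pass. Of 4 satellite-cell markers 1 was called lower, Cdh15, while 2 of the 4 were above 0 and 2 below, from -0.37 to 0.56. Their summed level was 47.8 to 60.2 CPM in females and 39.7 to 53.2 CPM in males. None of the 9 macrophage, 8 fibroblast, 7 endothelial, 5 red blood cell and 6 Schwann cell markers passed, and none was at 0. The red blood cell markers summed to 308 to 2413 CPM in females and 281 to 2290 CPM in males, with 5 of 5 below 0. The part of these cells and fibres in the lower ribosomal protein level was not tested.

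Other genes of the ribosome and of translation were read from lists. Over all genes tested 2.72% were called lower in males and 49.9% were below 0. Gnb2l1, the Rack1 scaffold of the small subunit, lies outside the symbol rule and was called lower in males, with -0.13 ± 0.034 and an edgeR adjusted p of 0.0300. Fau and Rpl36al, also outside the rule, were below 0 and did not pass. Of 16 elongation factors and genes of the same pyrimidine-tract type 3 were lower (Eef2, Eef1b2 and Hnrnpa1) and 15 were below 0, with a median of -0.11. Of 60 ribosome assembly factors 5 were lower and 56 were below 0, with a median of -0.12. Fbl, which methylates ribosomal RNA, fell by 0.31 on the log2 scale, Nop58 by 0.28 and Gnl3 by 0.26, all past the threshold.

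Of 29 initiation factors 4 were lower, with a median of -0.090. Eif2s3x, an X-linked gene with a Y-linked counterpart, fell by 0.76 on the log2 scale, and Eif3d and Eif3b by 0.18 and 0.14. Among 16 genes of TOR signalling Myc, a transcription factor that drives ribosome production, fell by 1.19 and Akt2 by 0.18, while Eif4ebp2, a translation repressor, rose by 0.25, and the median was -0.038. None of 15 genes of RNA polymerase I and its factors passed, with a median of -0.036. None of 76 mitochondrial ribosomal proteins passed in either direction, with 40 above and 36 below 0 and a median of 0.010.

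In the comparison of vectors no gene of these lists was called. The mitochondrial ribosomal proteins had 72 of 76 members below 0, against 51.7% of all genes. Their median was -0.071, close in size to the -0.069 of the cytosolic genes. The medians were 0.00041 for elongation factors and their like, -0.017 for initiation, -0.023 for assembly, -0.019 for RNA polymerase I and -0.012 for TOR signalling. All 8 fibroblast markers and 8 of 9 macrophage markers were above 0 in that comparison and none passed. The summed fibroblast level was 574 to 1254 CPM in the empty-vector group and 818 to 1509 CPM in the Hand2 group. The red blood cell markers had 5 of 5 above 0, with a median of 0.31 and sums of 281 to 2413 CPM and 308 to 2290 CPM. The sexes differed there, with 4 of 5 below 0 within females (median -0.89) and 5 of 5 above 0 within males (median 1.53). Of the slow-fibre markers 6 of 7 were above 0 (sums of 135 to 1456 CPM and 145 to 1403 CPM), and of the endothelial markers 6 of 7 were below 0 (415 to 578 CPM and 404 to 536 CPM). Within females all 7 slow-fibre markers were below 0, and within males 6 of 7 were above 0. Of the endothelial markers 6 of 7 were below 0 within females and 3 of 7 within males. None of these passed, and their part in the result was not tested.

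The balance of Rpl3l and Rpl3 was then compared as log2 of their count ratio, which does not depend on library size. In females Rpl3 measured 83.0 to 135 CPM with a median of 87.6, and in males 65.4 to 83.7 CPM with a median of 74.9. Those ranges overlapped only between the lowest female and the highest 2 males. Rpl3 had a log2 fold change of -0.30 ± 0.083 (SE) and an edgeR adjusted p of 0.0458, the largest fold change among the members, called in 12 of the 30 other settings. Rpl3l did not pass, with -0.018 ± 0.040 and an edgeR adjusted p of 0.831, and measured 645 to 734 CPM in females and 636 to 763 CPM in males.

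The count ratio of Rpl3l to Rpl3 was 7.5 ± 0.98 in females (SD, n = 9) and 9.0 ± 1.1 in males (SD, n = 8). The mean log2 ratio was higher by 0.26 in males, with a two-sided exact permutation p of 0.00761 over 24310 splits and 0.0152 after adjustment over the 2 ratio comparisons. With labels permuted within each vector the permutation p was 0.0085. Within 22 months the difference was 0.21 with an exact permutation p of 0.190, where the smallest p the 5 females and 2 males allow is 0.0476. Within 23 months it was 0.35 with an exact permutation p of 0.0333. Between vectors the mean log2 ratio differed by 0.013, higher with Hand2, with an exact permutation p of 0.919. That difference was -0.18 at 22 months and 0.17 at 23 months.

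No correlation between Rpl3 and Rpl3l across animals was detected. Over the 17 animals Pearson's r of log2 CPM was 0.077 with a permutation p of 0.755, and Spearman's rho was 0.039 with a permutation p of 0.884. Pearson's r was 0.11 in the empty-vector group, -0.22 in the Hand2 group, 0.20 in females and -0.28 in males. Over these 5 relations and both coefficients every adjusted permutation p was 0.963. Leaving out empty-vector replicate 5 and Hand2 replicate 6, the animals farthest from the median of Rpl3, gave an r of -0.13 with a permutation p of 0.644.

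**Figure D4:**
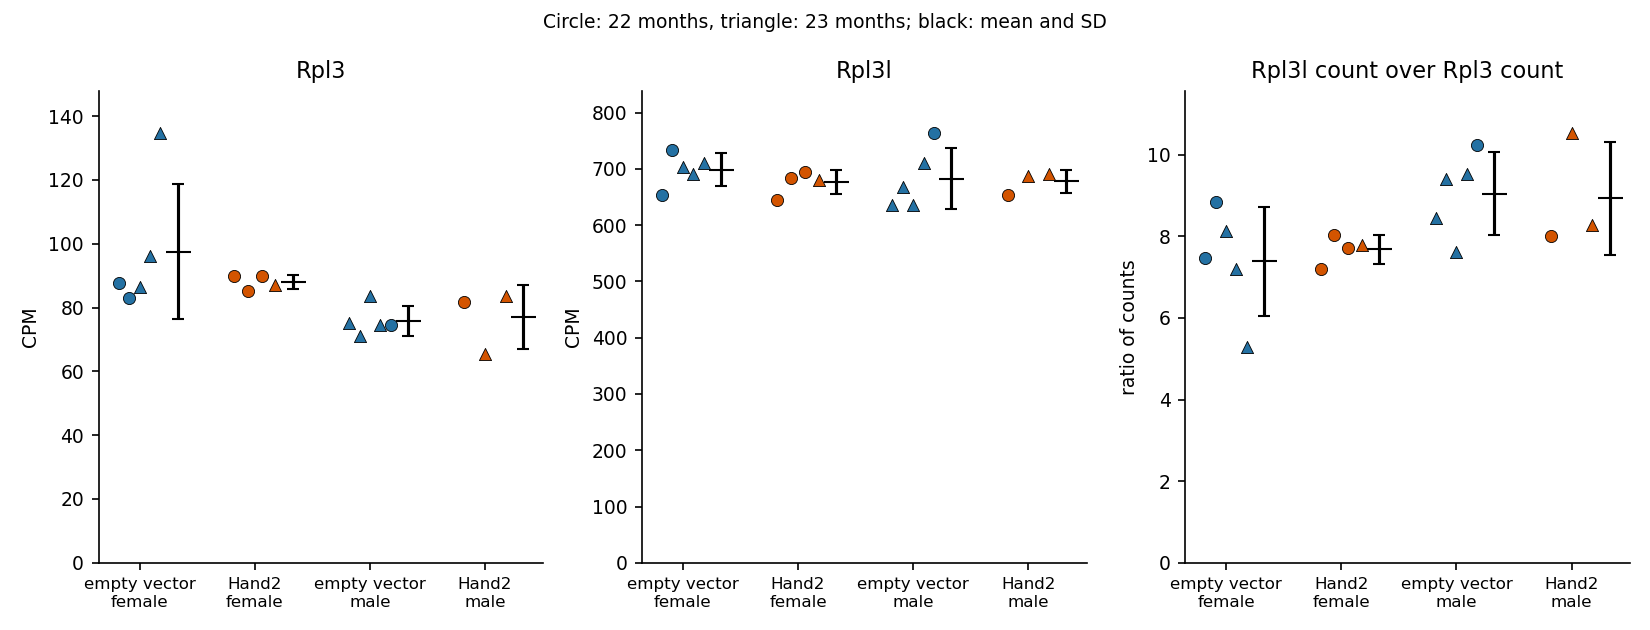
Rpl3 and Rpl3l in CPM and the ratio of their counts in each animal, by vector and sex, with the mean and SD in black, circles for 22 months and triangles for 23 months. Rpl3l lies between 636 and 763 CPM in all 4 groups, and the ratio runs from 5.28 in empty-vector replicate 5 to 10.5 in Hand2 replicate 6.

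The start-site features were then counted in the called members. Of the 27 called members 20 had a matched promoter, and 9 of these (45%) had a pyrimidine run, against 16 of 40 other tested members (40%). CCGGAAG was found in 10 of 20 (50%) against 14 of 40 (35%). These shares are descriptions, and 7 of the called members had no promoter in the table.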

How the data were processed

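Values came from 1 deposited table of gene loci; the submitters' processing notes name mm10 as the genome build. It held estimated counts per library, which the authors deposited without scaling for depth, and normalized log2 values, which the authors derived from them. The library kit was Illumina TruSeq v2, per the labels; the sources used here do not give the aligner, the counter or the use of strand. Of member values above 0, only 0.731% were whole within 0.001, against 27.3% over all genes. Whether this came from reads divided between loci is not given. Ribosomal protein genes have many processed copies, and 258 pseudogene rows held 0.00077% to 0.00107% of counts. Of these rows 253 were at 0 in every library. How reads were divided between a gene and its copies is therefore uncertain for every member.

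Counts were rounded, filtered with filterByExpr, and scaled by TMM. The robust quasi-likelihood test of edgeR 4.0.16 in R 4.3.3 had vector and sex as terms, or 4 vector-by-sex groups, adjusted over 13965 genes by Benjamini-Hochberg at 0.05. CPM are TMM-scaled. Ratios were tested by exact permutation and correlations by 100000 permutations, or exactly under 10 animals (scipy 1.17.1). Alternatives used DESeq2 1.42.0, limma 3.58.1, other scalings and filters, age and fewer animals. The fit was also run on simulated data. Genes there were drawn independently, so that run does not gauge errors among members that vary together. Coding lengths came from GENCODE (GRCm38) and promoters from RefSeq. Replicate numbers follow accession order, and p-values set a difference against the spread between these animals. Intervals are 95% intervals of the log2 fold change, made from its SE, and are not ranges of the counts.

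Members, lists and tests were chosen with earlier results of these data known. Named were Rpl3, all paralogues, Rplp0, Rplp1, Rplp2, Rpsa, up to 5 members a direction by smallest p in both main comparisons and 3 in the others, the 3 of highest and lowest level and spread, and up to 3 genes per list. Rps6, Rpl41 and the genes whose start sites are shown were chosen after their values were seen. Some results of the gene lists are not reported here.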

Additional observations from a re-analysis of the deposited data

Results flagged for a closer look

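In each vector group the highest or lowest animal was compared with its nearest neighbour, as a share of the group's range, for 64 groups of values. Chance marks about 1 in 20 independent groups that were not picked by their spread, and 8 values were marked. Here Rpl3, Rpl22l1 and Rplp0 were among the genes named for the largest spread, and Rpl3 also enters the ratio. That rate is therefore only a rough guide. Empty-vector replicate 5, a female of 23 months, had Rpl3 at 135 CPM, next to 96.0 CPM, and a log2 ratio of Rpl3l to Rpl3 of 2.40, next to 2.85. Hand2 replicate 6, a male of 23 months, had the lowest Rpl3 at 65.4 CPM, next to 81.7 CPM, and a log2 ratio of 3.40, next to 3.05. Empty-vector replicate 2 had Rpl22l1 at 34.6 CPM, the lowest of its group, and Rps27l at 89.5 CPM, the highest. Hand2 replicate 7 had Rplp1 at 309 CPM, below the others, and Hand2 replicate 5 had Rps14 at 278 CPM, above the others.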

How the results depend on the processing

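In 30 other settings for the main comparisons and 27 for those within a sex, no member was called for the vector. The number of members called lower in males (27) was 9 on the authors' log2 values with limma (11.25%, against 4.30% of all genes). It was 13 without a filter (16.25%, against 3.05%) and 16 without the vector term (20%, against 5.43%). With the shares of all genes given above, it was 4 with upper-quartile scaling, 7 with an age term, 0 at 22 months and 8 at 23 months. It was also 1 without empty-vector replicates 3, 4 and 5, 35 with DESeq2 and 29 with limma-voom. It ran from 8 to 42 when single animals were left out. The log2 ratio of Rpl3l to Rpl3 between vectors was -0.18 at 22 months and -0.055 to 0.050 without single animals. Between sexes it was 0.21 at 22 months (exact permutation p 0.190). The correlation of Rpl3 and Rpl3l was -0.050 with upper-quartile scaling and -0.13 to 0.24 without single animals.

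Signs of small, uncalled values turned as follows. For the vector, Rpl4 was -0.0014 with DESeq2, -0.0018 on the authors' values, -0.0013 with DESeq2's size factors, -0.0011 with scaling factors made without the members, -0.0016 without a filter, -0.0028 at 22 months and -0.011 to 0.016 without single animals. Rpl3 was 0.069 at 22 months, 0.031 without those 3 females and -0.11 to 0.0081 without single animals, and Rpl3l was 0.020 at 23 months. For sex, Rpl3l was 0.0079 with upper-quartile scaling and 0.040 at 22 months. Rpl22l1 was -0.0025 with an age term, -0.088 at 23 months and -0.023 to 0.046 without single animals. Rpl7l1 was -0.032 at 22 months, -0.045 without those 3 females and -0.026 to 0.027 without single animals. Rplp1 was 0.020 and Rplp2 0.024 at 22 months. For the vector in females, Rpl7 was -0.0023 with DESeq2, -0.0025 with limma-voom, -0.0017 on the authors' values, -0.0022 with DESeq2's size factors, -0.00023 with factors made without the members, -0.0068 with an age term and -0.013 to 0.011 without single animals. Rpl22 was -0.012 with limma-voom and -0.016 to 0.040 without single animals. In males, Rpl3 was -0.021 with limma-voom and -0.044 to 0.13 without single animals, and Rpl4 was -0.0088 to 0.061 without single animals. The difference of the effect on Rpl3 between sexes was -0.025 without those 3 females. The cause of these moves was not tested, beside the fewer animals in some settings.

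No paired analysis was possible because the replicate numbers follow accession order. Reads shared with near-identical copies limit the level of every member, and sex and age are unevenly crossed, with 2 males at 22 months. Rpl39l and Rpl10l had too few counts for any comparison.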
